A study of Homo sapiens with 4 samples.

Results

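The response of HCT116 cells to BORIS siRNA was read from 2 arrays, 1 of cells given BORIS siRNA and 1 of cells given negative control siRNA. HCT116 is an established epithelial line from a human colorectal carcinoma. Of 18132 genes with a probe set paired with that gene alone, 10631 counted as expressed in HCT116, because the probe set standing for the gene, the brightest over the study's 4 arrays, was at or above an array's median on 1 or both of these arrays. The difference for a gene was its log2 value with BORIS siRNA minus its log2 value with control siRNA, so a value of 1 is a doubling and a value of -1 a halving. Each group held 1 array, so no difference below has a test, an error or a replicate check, and words such as lower and higher describe these 2 RNA samples.

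The study held 4 samples, HCT116 and Caco-2 cells each with BORIS siRNA or negative siRNA. Per the labels' protocols, both lines were grown in high-glucose DMEM with serum, transfected with Lipofectamine RNAiMAX and lysed after 3 days with TRIzol. Biotin-labelled cRNA was made with a kit that copies RNA from the 3' end and was hybridised to PrimeView arrays. Not given in the sources used here are the siRNA sequences and whether the BORIS siRNA was a pool. In bulk RNA such as this, fewer cells of a kind and less RNA per cell cannot be told apart.

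BORIS is the product of CTCFL and a paralog of CTCF, the zinc finger protein that holds chromatin loops and insulates genes from each other. The 2 proteins share a DNA-binding domain of similar sequence preference and differ in their ends. CTCF is made in nearly all cells, while BORIS is normally made in male germ cells and is switched on in some tumours, where it has been studied as a regulator of cancer-testis and growth genes. RNA interference removes a transcript through a short guide RNA carried by an Argonaute protein.

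The target itself lay below the level at which these arrays could measure it. The 7 CTCFL probe sets read between 2.97 and 5.07 with control siRNA and between 2.68 and 5.08 with BORIS siRNA, and their differences ran from -0.47 to 0.38. Background was the value that 95% of 368 probe sets for olfactory receptors, genes silent in most tissues, stayed under, and it was 5.09 on the control array and 5.15 on the BORIS siRNA array. All 7 probe sets lay under it on both arrays, so no fold is given and the target offers no check of the siRNA labels. CTCF, from its 1 bright probe set, read 9.03 and 8.70 on the control and BORIS siRNA arrays, a difference of -0.33. A probe set is called bright here when it reached the array median on at least 1 HCT116 array.

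The epithelial identity of the line was visible on both arrays. Of 14 markers of colorectal epithelial lines, 12 had a value and 9 were expressed. EPCAM, an epithelial adhesion protein, read 12.10 with control siRNA and 12.18 with BORIS siRNA, KRT8, a simple-epithelium keratin, 12.92 and 12.67, and CDX2, an intestinal transcription factor, 7.23 and 6.91. Of the 9 expressed markers 8 were lower with BORIS siRNA, 2 at 1.5-fold, with a median difference of -0.33, and EPCAM was the only one above its control value. VIL1, FABP1 and CDX1 were not expressed and lay below background on both arrays. Of the markers of other cells, 1 of 11 for fibroblasts (ACTA2, 6.56 and 7.12), 2 of 13 for blood cells, 3 of 10 for endothelium and 7 of 10 for neurons were expressed. The summed linear level of each list, on the log2 scale, was 7.82 and 8.12 for fibroblasts, 8.43 and 8.45 for blood cells, 8.13 and 8.32 for endothelium and 10.78 and 10.72 for neurons. Of the 7 expressed neuronal markers, MAP2 (6.73 and 5.81) and SYT1 (8.29 and 7.66) were lower and the other 5 were higher, from 0.03 for TUBB3 to 0.58 for RBFOX3.

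Added control RNAs differed between the HCT116 arrays. Poly-A spike-ins are bacterial transcripts put into the total RNA before labelling, and hybridisation controls are labelled fragments put in at hybridisation. All 24 poly-A probe sets (dap, lys, phe and thr) were higher on the BORIS siRNA array, by 0.58 to 1.43 with a mean of 0.87. The means were 0.79 for dap, 0.74 for lys, 0.85 for phe and 1.09 for thr. All 18 hybridisation probe sets were higher as well, by 0.48 for bioB, 0.40 for bioC, 0.32 for bioD and 0.12 for cre on average. In Caco-2 the corresponding means were -0.07 over the poly-A controls and 0.01 over the hybridisation controls. Background probe sets of 4 to 24 GC bases differed in HCT116 by 0.04 on average, and the 3 probe sets of trp, which read 3.10 and 3.06 on average, by -0.05. The 3' minus 5' difference of the ACTB control transcript was 1.34 with control siRNA and 1.47 with BORIS siRNA, and that of GAPDH was 0.04 and 0.03. The part of these differences in the results below was not tested.

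**Figure D1:**
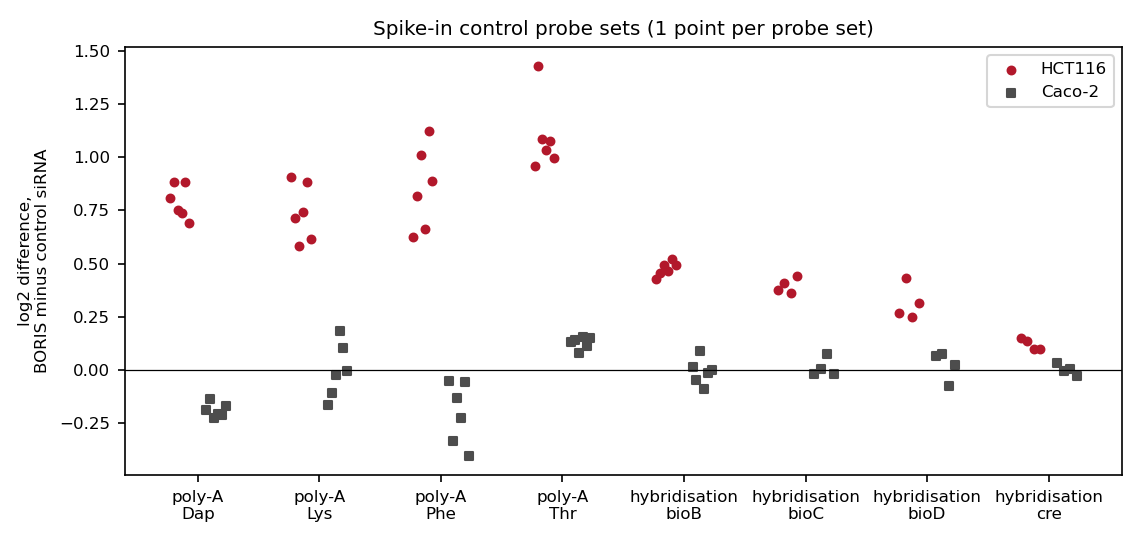
Log2 difference (BORIS minus control siRNA) of each spike-in control probe set, 1 point per probe set, in HCT116 (red circles) and Caco-2 (grey squares). Every HCT116 point lies above 0, from 0.10 for cre to 1.43 for thr, while Caco-2 points lie between -0.40 and 0.18.

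Most expressed genes differed little, and the larger differences leaned to the lower side. The median over the 10631 genes was -0.05, with quartiles of -0.31 and 0.19. At 2-fold or more, 154 genes were lower (1.45%) and 62 were higher (0.583%), so 71.3% of the 216 lay on the lower side. At 1.5-fold or more, 976 genes were lower (9.18%) and 464 higher (4.36%), and by any amount 55.4% of genes were lower and 44.5% higher. The split at 2-fold moved with the scaling: it was 126 lower and 98 higher after quantile normalization (56.2% lower), 122 and 91 (57.3%) with loess used to remove the trend on expression level, and 55 and 39 (58.5%) when each gene was the mean over its probe sets. The standard deviation of the differences was 0.40 in HCT116 and 0.27 in Caco-2, where 5 genes were lower and 42 higher at 2-fold.

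**Figure D2:**
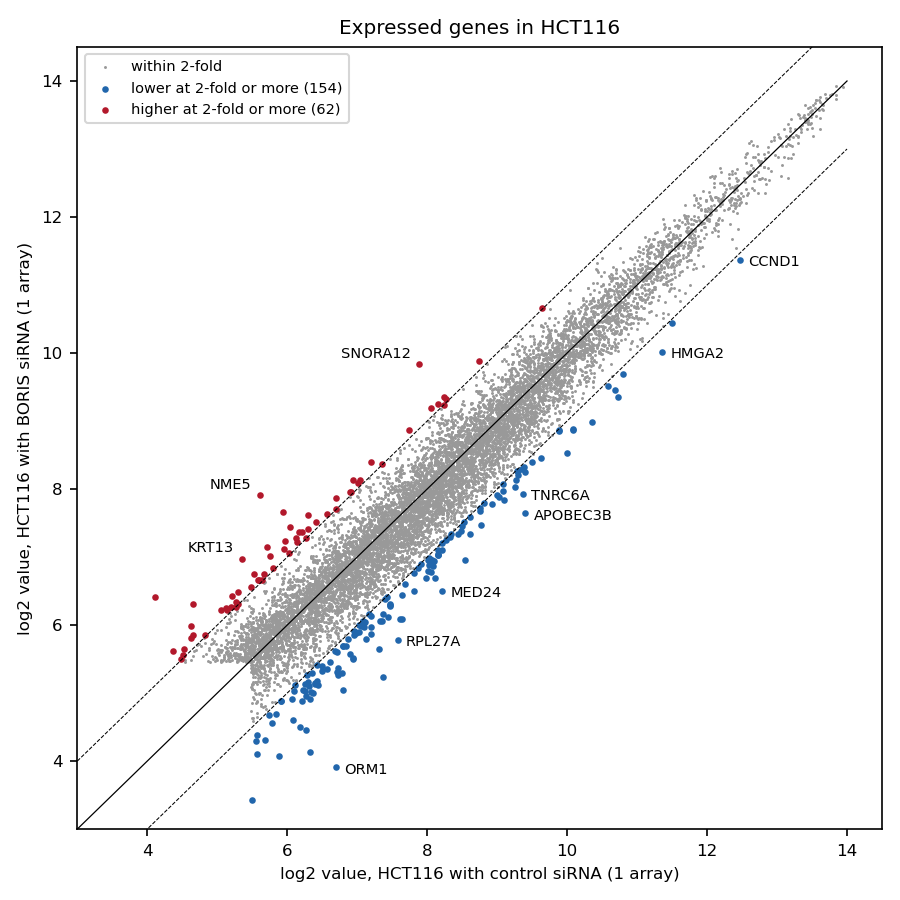
Log2 values of the 10631 expressed genes, control siRNA array on the x axis and BORIS siRNA array on the y axis, 1 array each, with the line of equality and dashed lines at 2-fold. Blue points are the 154 genes lower and red points the 62 genes higher at 2-fold or more, and the lower genes extend to bright genes such as CCND1 at 12.47 and 11.37.

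Genes near the thresholds show how fine those lines were. PPIP5K2, at 8.24 and 9.24, lay just inside the higher side, and ZNF845, at 5.18 and 6.18, just outside it. MAMLD1, at 6.11 and 5.11, was just inside the lower side and GEM, at 6.93 and 5.93, just outside. On the expression threshold, NBEAL1 entered with a highest value of 5.46 and HCRTR1 was left out at the same rounded value of 5.46.

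Many of the 216 genes rested on a single bright probe set. This held for 118 of them, 75 lower and 43 higher. Among the other 98, all bright probe sets of the gene lay on the same side of 0 in 86 and did not in 12, and in 57 all of them were at 1.5-fold or more. In 43 genes, 32 lower and 11 higher, the dimmer of the 2 values was below background, so the difference is a lower bound set by that background.

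The largest differences on the lower side were of this weaker kind in several cases. ORM1, which encodes the acute-phase plasma protein orosomucoid, read 6.70 with control siRNA and 3.91 with BORIS siRNA, lower by at least 1.55. Its 4 _x_at probe sets, a kind that can bind related transcripts, were all below background with BORIS siRNA, and 3 of them lay above it with control siRNA, which makes them lower by at least 1.55, 1.43 and 0.05. Its only other probe set was below background on both arrays. ORM2, a near-identical neighbour of ORM1, read 7.37 and 5.24 from 1 such probe set, so the pair cannot be told apart here. STX11, a syntaxin of immune cell secretion, read 6.33 and 4.14, at least 1.17 lower, while its other 3 probe sets were below background on both arrays and differed by -0.06 to 0.07. MAML3, a Notch coactivator, read 5.50 and 3.43, at least 0.35 lower, and its other 3 probe sets lay between 3.62 and 4.54 on both arrays. As means over all their probe sets, STX11 stood at -0.55 and MAML3 at -0.60. BHLHE41, a repressor of the circadian clock, read 5.88 and 4.07, at least 0.73 lower, with a mean of -0.48 over all its probe sets.

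Others of the 12 largest lower genes stayed above background or had support from further probe sets. APOBEC3B, a DNA cytidine deaminase, read 9.40 and 7.64, a difference of -1.76 from its only probe set, a kind that can bind related transcripts. RPL27A, a ribosomal protein gene, read 7.58 and 5.78 from its only probe set. This reading was dim for its class, as the 66 cytosolic ribosomal protein genes summed to 19.33 on the log2 scale with control siRNA. Whether the probe set reads the main RPL27A transcript was not tested. PTPRE, a tyrosine phosphatase, read 7.31 and 5.65, with a mean of -0.89 over all its probe sets. GPR39, a zinc-sensing receptor, read 6.27 and 4.46, at least 1.12 lower, and its other bright probe set read 6.08 and 5.36. SMAD6, SKIL and MED24 complete the 12 and are given with their pathways. SMAD6 was an exception, below background with BORIS siRNA and at -0.13 in its other bright probe set.

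On the higher side the 12 largest were mostly genes with 1 bright probe set. NME5, a nucleoside diphosphate kinase family gene of cilia and sperm, read 5.61 and 7.91 on the control and BORIS siRNA arrays, higher by 2.30. ANXA10, an annexin of gastric epithelium, read 5.94 and 7.67. TM4SF18, a transmembrane protein gene, read 5.72 and 7.15, and MED11, a Mediator subunit, 6.04 and 7.44. These 4 were above background on both arrays.

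KRCC1 read 4.65 and 6.31, and CLHC1 4.62 and 5.99, so that from background they were higher by at least 1.22 and 0.90. C12orf60 read 6.30 and 7.62, C6orf52 5.97 and 7.24, and TMEM139 5.76 and 7.02. Small RNAs also stood among the 12. SNORA12, which guides pseudouridylation of RNA, read 7.89 and 9.84, and SCARNA14, of the same class in Cajal bodies, 4.12 and 6.41, higher by at least 1.32. Whether the probe sets of these 2 genes read the mature small RNAs or longer transcripts that contain them was not tested. As means over all their probe sets, CLHC1 stood at 0.82 and TMEM139 at 0.61.

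A stricter view keeps genes whose probe sets tell the same story. Of 3369 genes with 3 or more bright probe sets, 31 (0.92%) had all of them lower at 1.5-fold or more with at least 1 at 2-fold, and 20 (0.594%) had all of them higher in that way. These 51 genes were spread over many functions, and the differences of their probe sets are described here without a test. In 8 of the lower and 7 of the higher genes, 1 or more bright probe sets had a value below background, so their difference there is a lower bound. With each such probe set at its bound, 29 of the 31 and 16 of the 20 met the rule, and HMGA2, PDGFA, CYP1B1, GSTA4, XRCC4 and ZNF616 did not. Probe sets of a gene share the RNA sample and the array, so they are not replicates of the siRNA.

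TNRC6A and MED24 had the lowest medians over their bright probe sets. TNRC6A, the scaffold that links Argonaute to the enzymes that silence messenger RNA, read 9.36 with control siRNA and 7.93 with BORIS siRNA, and its 4 bright probe sets differed by -1.72 to -1.16. MED24, a subunit in the tail of the Mediator complex, read 8.22 and 6.50, and its 8 bright probe sets differed by -1.85 to -0.75 with a median of -1.52. In Caco-2 the corresponding probe sets of both genes were lower too, TNRC6A at 8.81 and 8.33 and MED24 at 7.76 and 7.26.

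Several of the 31 lower genes act in growth and signalling. CCND1, cyclin D1 of the G1 phase, read 12.47 and 11.37, with 4 probe sets at -1.41 to -0.78. CCN2, a matricellular growth factor, read 7.12 and 5.80, with 3 at -1.67 to -1.14. INSR, the insulin receptor, read 7.05 and 5.98, NOTCH2, a Notch receptor, 8.61 and 7.59, PDGFA, a growth factor, 8.38 and 7.42, and CRKL, an adaptor of tyrosine kinase signalling, 9.08 and 8.08. SAV1, a scaffold of the Hippo kinases, read 9.60 and 8.66, and AMOTL1, an angiomotin that binds YAP, 7.54 and 6.89.

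Others encode transcription factors and RNA-binding proteins. HMGA2, an architectural chromatin protein of embryonic and tumour cells, read 11.36 and 10.02, although the mean over all its 6 probe sets was -0.35. NFYC, a subunit of the CCAAT-box factor NF-Y, read 7.91 and 6.89 with 6 probe sets lower. CTBP2, a corepressor, read 10.49 and 9.75 with 7 probe sets lower, and ELF3, an epithelial ETS factor, 9.46 and 8.66. SAFB, a nuclear matrix protein, read 9.59 and 8.96, and QKI, a splicing regulator, 8.77 and 7.47.

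The remaining lower genes of this kind were membrane, cytoskeletal or little-studied genes. SLC2A1, the main glucose transporter of tumour cells, read 11.50 and 10.45, and CDCP1, a transmembrane substrate of Src kinases, 10.36 and 8.98. MICB, a stress ligand of the immune receptor NKG2D, read 9.89 and 8.94. SVIL, the actin-binding protein supervillin, read 7.61 and 6.85. The others were FAM168B, LDLRAD3, SH3BP4, TMEM131, USP36, RIPOR1, NAV1, AHNAK2, TMEM64, ASAP1 and ALG9, with differences between -1.30 for USP36 and -0.62 for ALG9 in their brightest probe sets.

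The 20 higher genes held members of DNA repair, RNA processing and chromosome segregation. XRCC4, the cofactor of DNA ligase IV in end joining, read 8.74 and 9.89, with 4 probe sets at 1.04 to 1.14, of which 1 was below background with control siRNA and higher by at least 0.54. SLF1, which brings the SMC5/6 complex to damaged DNA, read 7.35 and 8.38. PHF5A, a splicing factor subunit, read 9.64 and 10.66, GEMIN2, which helps assemble splicing particles, 8.24 and 8.94, and LARP7, a binder of the 7SK RNA, 8.13 and 8.99. ITGB3BP, a kinetochore protein, read 9.27 and 10.26, and ACTR6, an actin-related chromatin protein, 9.11 and 10.09.

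Metabolic and membrane genes were also in that group. KRT13, a keratin of stratified epithelium, read 5.36 and 6.98. Its other 2 bright probe sets were below background with control siRNA, and from background they were higher by at least 0.93 and 0.79. CYP1B1, a cytochrome P450, read 5.24 and 5.85, and OXR1, an oxidation resistance gene, 8.36 and 8.99. GSTA4, a glutathione transferase, read 4.82 and 5.81, and its 3 bright probe sets, all below background with control siRNA, were higher by at least 0.72, 0.67 and 0.44. HSDL2, a peroxisomal dehydrogenase-like protein, read 8.80 and 9.73, VPS45, a vesicle fusion regulator, 8.07 and 8.84, and TMEM67, a cilium membrane protein, 6.60 and 7.40. TTC33, PPIP5K2, ARHGAP18, RBIS and the zinc finger genes ZNF267 and ZNF616 completed it, with differences of 0.71 for ZNF616 to 1.18 for TTC33.

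Caco-2 offered a separate pair of arrays for these 51 genes. AMOTL1, CCN2 and QKI were below background on both Caco-2 arrays. Of the other 28 genes lower in HCT116, 22 were lower in Caco-2, with a median of -0.18 and 4 at 1.5-fold. Over all genes expressed in Caco-2, 49.4% were lower by any amount and 1.14% at 1.5-fold. Of the 20 higher genes, 18 were higher in Caco-2, with a median of 0.37, 5 at 1.5-fold and 1 at 2-fold, which was XRCC4. The shares over all genes expressed there were 50.5%, 2.78% and 0.404%. SVIL was the opposite case, lower by 0.77 in HCT116 and higher by 0.66 in Caco-2. The difference between the lines was not tested, since 4 arrays leave 0 residual degrees of freedom for it.

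**Figure D3:**
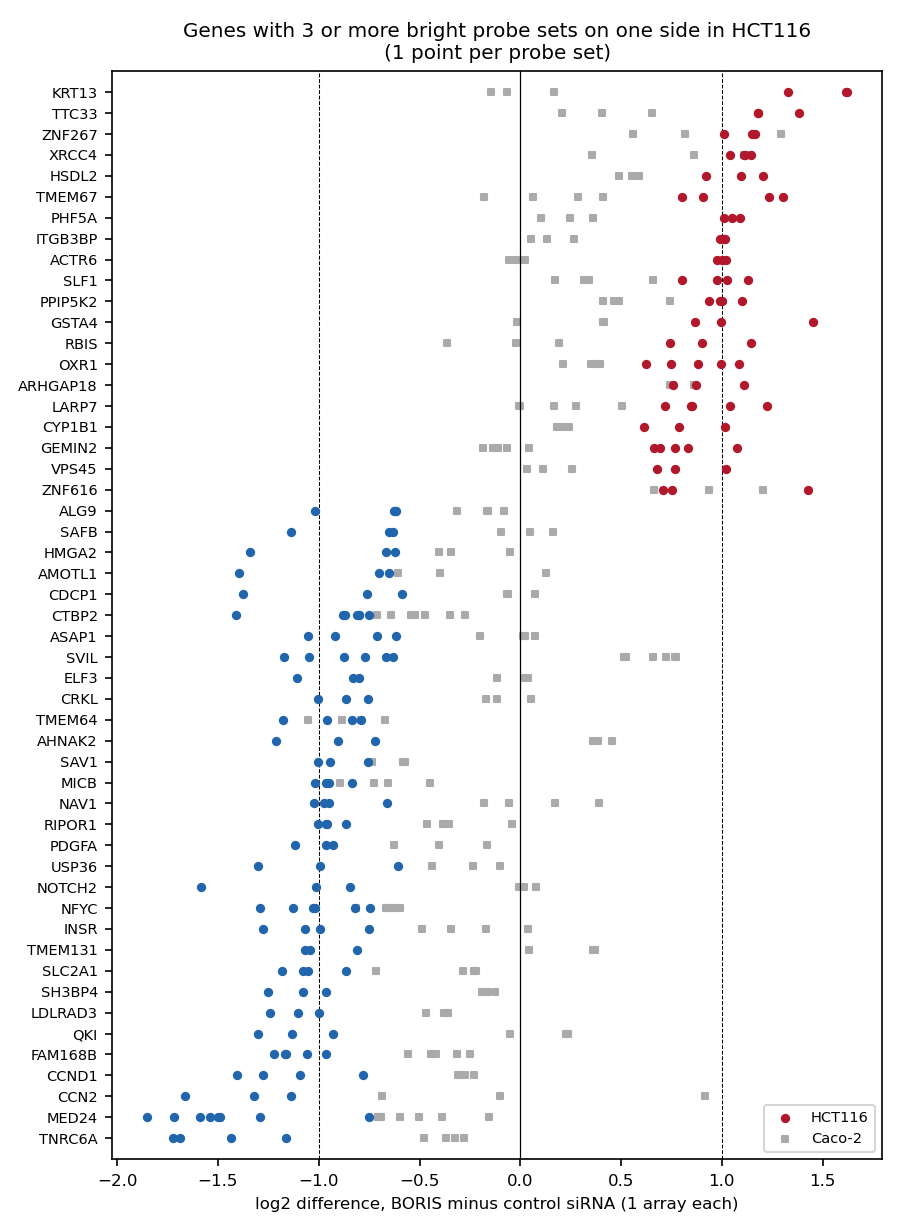
Log2 difference (BORIS minus control siRNA) of every bright probe set of the 51 genes with 3 or more of them on the same side, HCT116 in red (higher) or blue (lower) and the same probe sets in Caco-2 as grey squares, with dashed lines at 2-fold and values below background drawn as measured. The choice of genes fixes the HCT116 side, and most grey squares lie nearer to 0, XRCC4 (1.14 in both lines) being an exception.

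Signalling pathways were described through lists of their genes, beside a median of -0.05 and 55.4% lower over all expressed genes. A list of 18 expressed housekeeping genes leaned lower as well, with 14 lower (77.8%), 4 higher and a median of -0.09. At 1.5-fold 1 of these was lower and 0 were higher. Shares of lower members in the lists, here and in later paragraphs, are to be read against this list too. Counts at a fold, here and for the lists in later paragraphs, are to be read against the shares over all expressed genes. At 1.5-fold 9.18% of these were lower and 4.36% higher, and at 2-fold 1.45% were lower and 0.583% higher. TGF-beta and BMP ligands signal through paired receptor kinases and SMAD factors, and SMAD6 and SKIL feed back to restrain them. Of 30 expressed members, 27 were lower, 14 of them at 1.5-fold and 6 at 2-fold, and none was higher at 1.5-fold, with a median of -0.45. Among the receptors, ACVR1B read 8.08 with control siRNA and 6.87 with BORIS siRNA, and ACVR2B 7.39 and 6.38. SMAD3, which carries the signal to DNA, read 10.08 and 8.88, and its 5 bright probe sets differed by -1.28 to -0.13. ID2, a target gene, read 10.08 and 8.87. The inhibitor SMAD6 read 6.79 and 5.04, lower by at least 1.64, but its other probe sets differed by -0.36 and -0.13. SKIL read 6.19 and 4.50, lower by at least 1.03. The 3 members above their control value, named after their values were seen, were TGFBR1 at 0.34, BMP4 at 0.34 and ID3 at 0.20. As means over all their probe sets, ACVR1B stood at -0.60, SMAD3 at -0.74 and ACVR2B at -0.98. The median in Caco-2 was 0.03, beside 0.003 over all genes expressed there.

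YAP and TEAD drive growth genes when the Hippo kinases are off. Of 20 expressed members, 19 were lower, 6 at 1.5-fold and 3 at 2-fold, and the median was -0.47, against 0.09 in Caco-2. Without a filter on dim probe sets the HCT116 median was -0.28. AMOTL2, a target that binds YAP back, read 7.64 and 6.10, with a mean of -0.62 over its 3 probe sets. CCN2, a classical target, has been given among the genes with several probe sets, and ANXA1 was the only expressed member above its control value, at 0.48. AXL, a receptor tyrosine kinase, read 9.41 and 8.25, with a mean of -0.67 over its 2 probe sets. CRIM1, AJUBA and FJX1 differed by -0.91, -0.63 and -0.62, and the summed linear level of the list was nearly level, at 14.01 on the log2 scale on both arrays. The list also holds 8 genes that were not expressed.

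Immediate early genes are switched on within minutes by growth signals, and MAPK feedback genes restrain the kinase cascade that does so. Among 24 expressed members of the immediate early and AP-1 list, 23 were lower, 5 at 1.5-fold and 1 at 2-fold, with a median of -0.42 (0.04 in Caco-2), or -0.28 with the mean of all probe sets. EGR1 read 9.004 and 7.910 with all 5 bright probe sets lower (mean of all probe sets -0.81), FOSL2, an AP-1 subunit, 7.65 and 6.73, ZFP36, a destabiliser of messenger RNA, 10.27 and 9.59, and ATF3, a stress factor, 8.33 and 7.68. Of 18 MAPK feedback genes, 17 were lower, 8 at 1.5-fold and 3 at 2-fold, with a median of -0.39 (0.03 in Caco-2). DUSP5, a phosphatase of ERK, read 10.80 and 9.69, SPRY4, an inhibitor of receptor kinases, 8.21 and 7.21, and SPRED2, of the same family, 9.73 and 8.83. SPRY4 had a mean of -0.39 over its 3 probe sets. CCND1 belongs to this list and to the WNT list. The list of EGF receptors and ligands had 10 of 14 lower and a median of -0.38, which varied from -0.38 to -0.01 over the processing alternatives. In it RHBDF1 stood at -1.24, LRIG1 at -1.11 and the ligand gene HBEGF at -0.87, while the ligand gene NRG1 was higher by 0.88. As means over all their probe sets, RHBDF1 stood at -0.44 and LRIG1 at -0.64.

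The NF-kB and WNT lists leaned the same way. Of 27 NF-kB, chemokine and cytokine genes, 22 were lower, 8 at 1.5-fold and 2 at 2-fold, with a median of -0.38 (-0.03 in Caco-2), or -0.25 without the filter on dim probe sets. TNFAIP3, a feedback inhibitor of NF-kB, read 6.50 and 5.39 (mean of all probe sets -0.84), MAP3K14, the kinase of the non-canonical arm, 6.19 and 5.39, and CCL20, a chemokine, 5.57 and 4.10, lower by at least 0.42. Of 33 WNT and intestinal stem cell genes, 24 were lower, 9 at 1.5-fold and 2 at 2-fold, and 1 was higher at 1.5-fold, with a median of -0.24 (-0.03 in Caco-2), or -0.14 without that filter. LRP5, a WNT coreceptor, read 6.21 and 4.88, lower by at least 1.06, and the receptor genes FZD5 and FZD2 differed by -0.89 and -0.88. DKK4, a secreted WNT inhibitor, was the exception at 4.77 and 5.69, higher by at least 0.60.

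Hypoxia genes and the glycolysis enzymes among them answer to HIF. Of 39 expressed members, 35 were lower, 10 at 1.5-fold and 3 at 2-fold, with a median of -0.31 (0.01 in Caco-2), or -0.20 with the mean of all probe sets. PFKFB4, a regulator of glycolytic flux, read 8.07 and 6.95, with a mean of -0.55 over its 4 probe sets. ALDOC, an aldolase, read 9.49 and 8.40, with 5 probe sets at -1.23 to -0.48. NDRG1, a stress-induced gene, read 10.16 and 9.25 with all 6 bright probe sets lower, and HK2, a hexokinase, 8.48 and 7.65. Lipid lists were mixed. Of 20 cholesterol synthesis genes, 15 were lower but 1 at 1.5-fold, DHCR7, the last enzyme of the pathway, at 9.03 and 7.88, and of 27 fatty acid and triglyceride genes 20 were lower, with LPIN1 at -0.77 and ACSL5 at 0.68.

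Epithelial junction genes were lower without reaching 2-fold. Of 43 expressed members, 35 were lower and 9 of these at 1.5-fold, with a median of -0.30 (0.07 in Caco-2), or -0.18 without the _x_at and _s_at kinds. PARD6B, a polarity protein, read 8.96 and 8.10, CLDN4, a claudin, 9.85 and 9.01, CGN, the tight junction protein cingulin, 6.26 and 5.43, and OVOL1, an epithelial transcription factor, 8.79 and 7.98. Of 25 integrin, laminin and collagen genes, 19 were lower and 6 at 1.5-fold, with a median of -0.20, among them COL12A1 at 9.20 and 8.21 and ITGA3 at 9.56 and 8.72. The keratins went both ways, with KRT80 at 6.40 and 5.14, lower by at least 1.25, and KRT13 higher.

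Chromatin and microRNA pathway genes also leaned lower. Of 74 DNA methylation and chromatin regulators, 54 were lower, 10 at 1.5-fold and 2 at 2-fold, and 1 was higher at 1.5-fold, with a median of -0.24 (0.11 in Caco-2). Over all expressed genes 9.18% were lower at 1.5-fold and 1.45% at 2-fold, and 4.36% were higher at 1.5-fold. CREBBP, a histone acetyltransferase, read 9.36 and 8.29 with 5 bright probe sets at -1.08 to -0.17 and a mean of -0.78. DNMT3A, a DNA methyltransferase, read 5.56 and 4.29, lower by at least 0.40, and its 4 probe sets averaged -0.40. KMT2B and ARID1A differed by -0.86 and -0.78, and SUV39H2, a histone methyltransferase, was higher by 0.81. Of 28 genes of the microRNA pathway, 24 were lower, 6 at 1.5-fold and 1, TNRC6A, at 2-fold, with a median of -0.22. TNRC6C read 7.09 and 6.13, DCP1A, a decapping factor, 9.45 and 8.55, and DICER1, which cuts microRNA precursors, 8.51 and 7.66. TNRC6C rested on 1 bright probe set, and the mean over its 3 probe sets was -0.21. The CTCF, BORIS and cohesin list had 18 expressed members, none at 1.5-fold, with SMC1A at -0.53 and ESCO1 at 0.55 at its ends, and its median of -0.06 turned to 0.04 without the _x_at and _s_at kinds.

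Mediator, which bridges transcription factors and RNA polymerase II, was split. Of 30 expressed subunits, 13 were lower and 17 higher, with a median of 0.01, 1 subunit at 2-fold in each direction. MED24 was the lower case and MED11 the higher, MED11 from 1 probe set. CDK19 of the kinase module differed by -0.81, MED12 by -0.58, MED17 by -0.48 and MED16 by -0.46, with all 6 bright probe sets of MED16 lower. The other bright probe set of CDK19 differed by -0.17. MED31 differed by 0.72, MED30 by 0.51, MED21 by 0.50 and MED7 by 0.43. The tail neighbours of MED24, MED16 and MED23, thus lay on opposite sides, with MED23 at 0.24.

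Genes of mitochondria and protein turnover were on the higher side by small amounts. Of 74 mitochondrial ribosomal protein genes, 54 were higher and 20 lower, with a median of 0.17 (-0.12 in Caco-2), and 6 were higher at 1.5-fold. MRPS33 read 10.44 and 11.19 and MRPL35 8.69 and 9.44. Of 73 oxidative phosphorylation genes, 45 were higher, with a median of 0.11 (0.07 with the mean of all probe sets) and 1 at 1.5-fold, NDUFA5, a complex I subunit, at 9.51 and 10.25. Of 32 proteasome genes, 22 were higher, with a median of 0.15, PSMC6, an ATPase of the cap, at 10.75 and 11.54 and the inhibitor gene PSMF1 at 8.81 and 8.11. These shares at 1.5-fold are to be read against 4.36% of all expressed genes. Cytosolic ribosomal protein genes had a median of 0.05, and apart from RPL27A their values lay between -0.31 and 0.34.

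Lists of the cell cycle and p53 had medians between -0.08 and 0.04. Medians were -0.05 for 54 G1/S genes, -0.08 for 49 mitosis genes and 0.04 for 33 p53 targets. Of 41 repair and damage genes, 25 were higher and 16 lower, with a median of 0.08. Single members lay farther out. CCNE2, cyclin E2, was higher by 0.87, and CENPE, a kinetochore motor, by 0.71. GDF15, a p53-responsive cytokine, read 12.42 and 11.55. CLSPN, a checkpoint mediator, read 6.32 and 4.92, lower by at least 1.17 (mean of its probe sets -0.71), while MRE11 and RAD54B of recombination were higher by 0.83 and 0.82. In the stress lists, SLC7A1, an amino acid transporter, stood at -0.92, and GLA, a lysosomal galactosidase, and MESD, a chaperone of WNT coreceptors, were higher by 0.97 and 0.96. Of 8 expressed genes reported to answer to BORIS or of the cancer-testis class, HMGA2 was lower and SPA17, a sperm protein, was higher at 7.20 and 8.40, and the median was 0.12. PRAME, a melanoma antigen, read 8.30 and 7.65, RBL2, a pocket protein of the cell cycle, 7.31 and 7.67, and MYC 11.61 and 11.37.

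**Figure D4:**
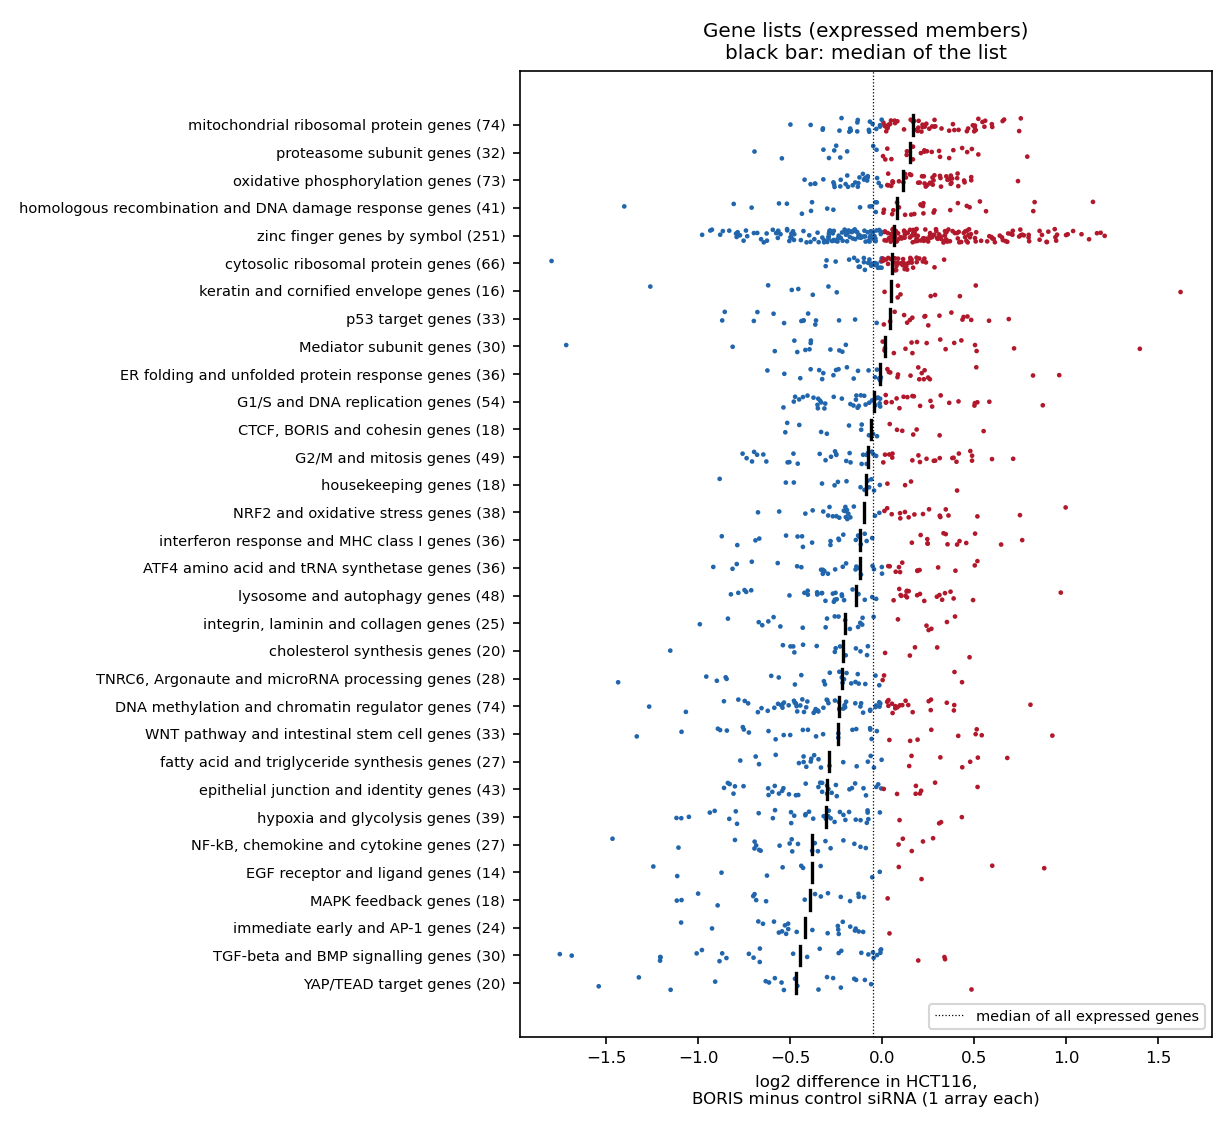
Log2 difference in HCT116 (BORIS minus control siRNA, 1 array each) of each expressed member of the gene lists with 14 or more, blue below 0 and red above, with the list's median as a black bar and the median of all expressed genes (-0.05) dotted. The YAP/TEAD, TGF-beta, immediate early and MAPK feedback lists have medians from -0.47 to -0.39, and the mitochondrial ribosomal list has the highest at 0.17.

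The differences also varied with properties of the genes that the lists did not use. Promoter GC content was taken over the 250 bases before each start site in RefSeq (GRCh38.p14), which covered 8813 of the 10631 genes. In 5 groups of near-equal size, from the lowest promoter GC to the highest, the median difference in HCT116 was 0.05, -0.01, -0.04, -0.09 and -0.15. Genes lower at 2-fold numbered 25, 14, 27, 24 and 35 in the same order, without a steady rise. By gene length the medians went from 0.00 in the group of shortest genes to -0.14 in the longest, where 58 genes were lower and 11 higher at 2-fold. In Caco-2 the same genes had medians between -0.01 and 0.02 by GC and from -0.09 to 0.11 by length, so the order by length ran the other way. Across genes, which are not independent replicates and share the arrays, Spearman's rho in HCT116 was -0.17 with promoter GC (n = 8813) and -0.10 with length (n = 10626). The 154 lower genes had a median length of 45.5 kb and the 62 higher genes 24.3 kb, against 29.2 kb for all expressed genes. The lower genes had a median promoter GC of 66.8% and all expressed genes 64.8%, and the check is void for the higher genes because 71.0% of them had a promoter, under 80%. The lists differed in these properties as well: median promoter GC was 59.8% for mitochondrial ribosomal, 60.8% for proteasome, 65.8% for TGF-beta, 68.7% for hypoxia and 69.2% for chromatin genes, and the part of GC and length in the list medians was not tested.

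**Figure D5:**
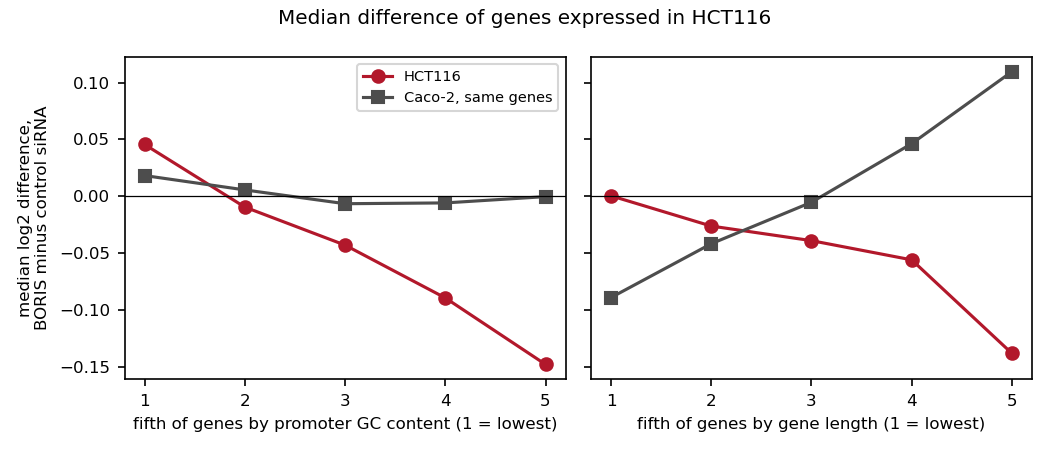
Median log2 difference (BORIS minus control siRNA) of HCT116-expressed genes in 5 groups by promoter GC content (left) and gene length (right), lowest first, HCT116 in red and the same genes in Caco-2 in grey. The HCT116 medians go from 0.05 to -0.15 by GC and from 0.00 to -0.14 by length, and the Caco-2 medians go from -0.09 to 0.11 by length.

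Promoters of 4 genes are shown because their lists or the target's DNA motif name a sequence that can be looked for. Motifs were searched on both strands in the 250 bases before the start site, and a match is a string of letters, not a bound site. Each is written 5' to 3' on the gene's strand from RefSeq GRCh38.p14 with the motif in capitals. EGR1 lies at chr5:138465229-138465478 (+) with 2 CArG boxes, the motif of serum response factor. CCN2 lies at chr6:131951373-131951622 (-) with 3 copies of GGAATG, the core bound by TEAD factors. ALDOC lies at chr17:28576896-28577145 (-) with ACGTG, the core bound by HIF, at 2 places, 1 of them on both strands in overlap. BDH2 lies at chr4:103099835-103100084 (-) with 1 match to the CTCF consensus.
EGR1: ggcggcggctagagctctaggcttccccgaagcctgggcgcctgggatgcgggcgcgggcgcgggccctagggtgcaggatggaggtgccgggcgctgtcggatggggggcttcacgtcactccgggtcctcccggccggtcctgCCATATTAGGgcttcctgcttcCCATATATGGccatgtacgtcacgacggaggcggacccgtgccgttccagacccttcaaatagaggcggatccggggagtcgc
CCN2: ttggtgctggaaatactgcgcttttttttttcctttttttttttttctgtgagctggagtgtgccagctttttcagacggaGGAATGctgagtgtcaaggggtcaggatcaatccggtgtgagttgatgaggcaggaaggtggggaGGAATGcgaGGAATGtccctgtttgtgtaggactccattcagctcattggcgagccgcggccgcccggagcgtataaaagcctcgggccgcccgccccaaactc
ALDOC: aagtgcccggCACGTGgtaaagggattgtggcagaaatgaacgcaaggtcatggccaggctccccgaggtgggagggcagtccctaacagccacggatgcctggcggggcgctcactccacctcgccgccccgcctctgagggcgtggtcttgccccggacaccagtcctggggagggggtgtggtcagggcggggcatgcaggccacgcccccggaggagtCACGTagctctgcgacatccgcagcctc
BDH2: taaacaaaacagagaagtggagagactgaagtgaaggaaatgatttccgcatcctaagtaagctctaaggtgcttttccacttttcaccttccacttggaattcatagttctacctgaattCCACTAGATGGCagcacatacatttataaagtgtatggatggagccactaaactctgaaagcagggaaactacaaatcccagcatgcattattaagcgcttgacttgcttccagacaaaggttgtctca

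These matches were set beside their frequency. A CArG box was found in 1.54% of promoters of expressed genes and in 4 of 125 promoters of genes lower at 2-fold (CBLL1, EGR1, FBLIM1 and H2BC21, named for the match after their values were seen). In EGR1 the boxes begin 105 and 83 bases before the start. GGAATG was in 12.8% of expressed promoters and in 24 of 125 of the lower genes (19.2%). ACGTG was in 29.2% of expressed promoters, in 34 of 125 of the lower genes (27.2%) and in 23 of 36 of the hypoxia genes (63.9%), a list that HIF targets define. The CTCF consensus was in 0.658% of expressed promoters, in 1 of 125 of the lower genes (KCNH2, named likewise) and in BDH2 among the higher genes. BDH2, a cytosolic dehydrogenase chosen after its values were seen, read 7.05 and 8.13 in HCT116 and differed by 0.57 in Caco-2. These values came from its 1 bright probe set, and the mean over its 3 probe sets in HCT116 was 0.56. Counts over the immediate early, YAP/TEAD and higher genes are void, as under 80% of them had a listed promoter.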

How the data were processed

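Total RNA of 4 samples was measured on Affymetrix PrimeView arrays, 1 per sample. The deposited table gives log2 values for each probe set, a unit read from their range. Not given in the sources used here is how the authors corrected background, normalized and summarised. Of 49395 probe sets, 44988 were paired with 1 gene through the platform annotation, and the brightest one by its 4-array mean stood for a gene. Genes, gene lists and named genes were chosen with earlier results of these data known: CTCFL and CTCF, the 12 largest differences per direction, genes whose 3 or more bright probe sets all passed 1.5-fold with 1 at 2-fold, list members at 2-fold and up to 4 others per list, and control probe sets. Where the dimmer value was below background, the fold is a lower bound, the brighter value against that background. The labels name no replicates, so no p-value was computed. Zinc finger, small nucleolar RNA and long non-coding RNA groups and BDH2 were added after seeing the data. The linear sum of a list is given on the log2 scale. Alternatives covered the filter, the probe set, the scaling and a pseudocount of 16. Python 3.11.15, pandas 2.3.3 and statsmodels 0.14.6 were used, and the scripts were tested on simulated data. The number of arrays limits the precision.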

Additional observations from a re-analysis of the deposited data

Results flagged for a closer look

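Of 34 groups with 10 or more expressed genes in each line, 24 had medians on opposite sides of 0 in the 2 lines. The medians over all expressed genes, -0.05 in HCT116 and 0.003 in Caco-2, were on opposite sides of 0 as well. The count of 24 is thus not one of groups that stood out from all genes. The 5 groups whose medians were at least 0.1 from 0 in both lines are given here, and the difference between the lines was not tested in any group. Cholesterol synthesis genes had a median of -0.21 in HCT116 and 0.149 in Caco-2. Mitochondrial ribosomal protein genes had 0.17 and -0.125. DNA methylation and chromatin regulator genes had -0.24 and 0.105, and integrin, laminin and collagen genes -0.20 and 0.209. Replication-dependent histone genes had -0.11 and 0.141, and without the filter on dim probe sets their HCT116 median was 0.0539, on the side of Caco-2. Of the 52 histone genes with a value, 12 were expressed in HCT116 and 39 lay below background on both HCT116 arrays. Among the 12 expressed, H2BC21 (6.08 and 4.60, lower by at least 0.93 in HCT116) was at the low end and H2BC5 (8.22 and 8.86) at the high end.

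Among 9855 genes expressed in both lines, 17 went opposite ways by 1.5-fold or more and 0 did so at 2-fold, again with no test of the difference, and they are named after their values were seen. In 13 the gene was lower in HCT116 and higher in Caco-2. CDH1, the adhesion protein E-cadherin, was among them at 9.61 and 9.01 in HCT116 and 7.01 and 7.64 in Caco-2. CXCL8, a chemokine for neutrophils, read 9.58 and 8.89 in HCT116 and 8.89 and 9.60 in Caco-2. SORL1, a sorting receptor, read 9.12 and 8.16 in HCT116 and 8.62 and 9.31 in Caco-2. IL17RD, an inhibitor of growth factor signalling, read 8.27 and 7.26 in HCT116 and 5.54 and 6.20 in Caco-2. The other 9 were AFAP1, CCDC9B, CMTM3, FAM43A, KATNAL1, LRBA, PDE9A, SVIL and TNRC6C. The 4 genes higher in HCT116 and lower in Caco-2 were B4GALNT1, KRTAP5-2, NRG1 and ZNF358. NRG1, a ligand of ERBB receptors, read 6.65 and 7.53 in HCT116 and 5.91 and 5.24 in Caco-2. Further probe sets often differed less in HCT116. As means over all their probe sets, B4GALNT1 stood at 0.09, KRTAP5-2 at 0.39, NRG1 at 0.32 and ZNF358 at 0.12. The bright probe sets of B4GALNT1 went both ways, from -0.60 to 0.74. For the 13 lower genes these means ran from -1.01 for FAM43A to -0.14 for AFAP1.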

How the results depend on the processing

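The number of genes at 2-fold depended on the processing. It was 39 higher and 55 lower when a gene was the mean over its probe sets, 98 higher after quantile normalization, and 23 higher and 82 lower with 16 added on the linear scale, the last of which shrinks differences of dim genes by construction. The mean of all probe sets shared 82 genes with the 216 reported, which is 38.0% of these. Of 74 genes named for their own difference, 41 stayed on their side of 0 and of the 2-fold threshold in each setting that gave them a value. These 41 include genes that were under 2-fold and stayed under it, such as CTCF at -0.33. The count is thus not one of 2-fold differences that held. Over the alternatives, with each list counted once per alternative, 331 medians moved by under 0.1, and the others are given here. Without a filter on dim probe sets the medians were 0.0539 for histone genes, which turned sign, -0.28 for YAP/TEAD, -0.34 for TGF-beta, -0.25 for NF-kB and -0.0144 for EGF genes. With the mean of all probe sets they were -0.28 for immediate early, -0.56 for MAPK feedback, -0.35 for YAP/TEAD, -0.20 for hypoxia, -0.0945 for keratin, 0.34 for acute-phase, -0.12 for EGF and -0.48 for neuronal genes. Without the _x_at and _s_at kinds they were -0.18 for epithelial, 0.0404 for CTCF and cohesin, 0.36 for acute-phase and -0.21 for EGF genes. The EGF median was -0.19 with the brightest probe set of the HCT116 arrays, the immediate early median -0.32 after quantile normalization and the neuronal median 0.14 after loess. Among the medians given here, those of keratin (0.05 as first reported), neuronal (0.03) and CTCF and cohesin genes (-0.06) also changed sign, to -0.0945, -0.48 and 0.0404. The cause was not tested. No paired analysis was possible because the labels give no replicate numbers and each group holds 1 array. Values below background have no measured order.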

Other observations

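Some gene classes that share no pathway were grouped by name or RefSeq biotype after the data had been seen. Zinc finger genes were taken by their symbol, and many of them encode repressors of transposable elements. They were higher in 145 of 251 expressed cases, with 39 at 1.5-fold and 7 at 2-fold, and with 20 lower at 1.5-fold. Over all expressed genes the corresponding shares were 44.5%, 4.36%, 0.583% and 9.18%. Their median was 0.07 in HCT116 and 0.16 in Caco-2. Over the processing alternatives it lay between 0.06 and 0.14.

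Non-coding RNA genes were read against the same share of 44.5% higher. Of 83 expressed long non-coding RNA genes, 59 were higher and 24 lower, with a median of 0.14, against -0.08 in Caco-2. Of 11 expressed small nucleolar RNA genes, 8 were higher and 2 lower, with a median of 0.20 and 2 at 2-fold. Whether their probe sets read the mature small RNAs or longer transcripts that contain them was not tested. Among liver-type secreted protein genes, 7 of 34 were expressed, and apart from ORM1 and ORM2 they went from SERPINA1, a protease inhibitor, at 6.22 and 5.86 to C4BPB, a complement regulator, at 6.04 and 6.59. Of 36 interferon and MHC class I genes, 22 (61.1%) were lower, near the 55.4% of all expressed genes. Their median was -0.12, and -0.20 in Caco-2. TAPBP, an antigen loading factor, read 8.82 and 7.95, and IFITM1, a membrane restriction factor, 7.51 and 6.72. IFIT1, which binds viral RNA, read 7.55 and 8.31.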
